A study of Mus musculus with 11 samples.

Results

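Respiratory complex I was followed through its own transcripts in irradiated small cell lung cancer (SCLC) cells. The members were the protein-coding genes whose symbol begins with Nduf, other than Ndufa4l2, or with mt-Nd, and they numbered 52 of the 35056 genes quantified. They fell into 37 subunits encoded in the nucleus, 7 subunits encoded by mitochondrial DNA and 8 Ndufaf assembly factors. RNA was sequenced in bulk from KP1, an Rb/p53 mutant mouse SCLC line of the SCLC-A subtype that grows in suspension. The control group held 2 libraries of untreated KP1 cells, numbered 2 and 3, and the irradiated group held 3 libraries of KP1 cells, numbered 1 to 3, that received 5 Gy and were collected at 24 h. All groups came from this 1 cell line, and the labels do not say whether the libraries came from separate cultures, so p-values measure the spread between these samples, which may be technical.

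Complex I is the largest enzyme of the mitochondrial respiratory chain. It takes electrons from NADH in an arm that faces the matrix, passes them along iron-sulfur clusters to ubiquinone and pumps protons through an arm in the inner membrane. The mt-Nd proteins form the core of the membrane arm, the nuclear core subunits carry the flavin and the iron-sulfur clusters of the matrix arm, and many small accessory subunits surround them. Assembly factors such as the Ndufaf proteins help to build the complex and are not part of the finished enzyme. Its transcripts are therefore made in separate compartments, by RNA polymerase II in the nucleus and by the mitochondrial RNA polymerase POLRMT in the organelle. There, long transcripts of the heavy strand are cut into shorter messages.

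The libraries held 21185956 to 31036317 estimated reads. They differed in the length of the transcripts that were read. An average read came from a transcript of 5463 bases in control 2 and 4729 bases in control 3, and from one of 3715, 3625 and 3998 bases in irradiated libraries 1, 2 and 3. Short transcripts therefore took a larger share of the irradiated libraries, and most complex I transcripts are short. The neuroendocrine label held, with all 10 markers of such SCLC cells passing the filter on low counts, and their summed level ran from 3120 to 3371 TPM (a level scaled by transcript length and by library) in control and from 3167 to 3402 TPM in irradiated libraries. Of these 10 markers 4 rose and 1 fell, against 12.7% and 13.0% of all genes tested. The one that fell was Ncam1, a cell adhesion protein, which fell by 1.202 (SE 0.29, adjusted p = 0.023 by edgeR with Benjamini-Hochberg adjustment). Of 6 leukocyte, 6 fibroblast, 4 alveolar and club cell and 3 endothelial markers, 1, 2, 2 and 2 passed the filter. Their summed levels in control and irradiated libraries were 4.55 to 6.78 and 1.21 to 1.62 TPM for leukocytes, 0.436 to 13.7 and 0.148 to 0.423 TPM for fibroblasts, and 1.28 to 1.55 and 0.314 to 0.524 TPM for endothelium. That of the alveolar and club cell markers was 3.05 and 7.59 TPM in control and 10.4 to 12.6 TPM in irradiated libraries, with Scgb1a1 and Sftpa1 at 0 reads throughout. The part of these markers in the results was not tested.

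The sequences around the start sites of nuclear members are shown first because many of these genes moved together. RefSeq promoter windows on GRCm38.p6, reaching from 250 bases before to 50 bases after the start, were matched by symbol for 40 of the 45 nuclear members. Ndufs1, Ndufb9, Ndufa2 and Ndufaf6 are among those without one in the table. The letters AAGATGGC, the core of the site of the factor YY1, stood in 7 of 33 nuclear subunit genes with a window (21.2%) and in 1 of 7 Ndufaf genes (14.3%), searched on both strands, against 3.19% of the 27025 genes with a window. In all 8 genes they lay on the strand of the gene, 10 to 38 bases after the start, a placing found in 0.865% of all 32851 windows. The letters also hold ATG, the letters of a start codon, and whether they act here as a site of YY1 was not tested. Of these 7 subunit genes Ndufb8, Ndufs4, Ndufs6 and Ndufc1 rose after irradiation, and Ndufa9, Ndufs7 and Ndufa3 were not called, by the test described after the sequences. Of all 37 nuclear subunits 30 rose, against 12.7% of all genes tested, so subunits with the letters did not rise more often than the subunits as a whole. In the lines that follow, capitals mark AAGATGGC and, in Ndufaf8, also the letters CCGGAAG of the ETS factors, and up to 30 bases are kept on each side. The stretches lie at chr6:126849095-126849145 (minus strand), chr10:80249443-80249498 (plus), chr19:44555393-44555434 (minus), chr13:114388045-114388089 (minus), chr13:73328433-73328479 (minus), chr7:3617365-3617422 (plus), chr3:51408906-51408963 (minus) and chr11:120098914-120098981 (plus).
Ndufa9: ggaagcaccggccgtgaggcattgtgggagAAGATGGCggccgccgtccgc
Ndufs7: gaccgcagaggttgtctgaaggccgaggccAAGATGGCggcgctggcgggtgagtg
Ndufb8: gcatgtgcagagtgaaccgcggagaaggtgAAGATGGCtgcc
Ndufs4: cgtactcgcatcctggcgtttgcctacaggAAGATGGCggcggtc
Ndufs6: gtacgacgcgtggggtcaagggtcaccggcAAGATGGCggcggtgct
Ndufa3: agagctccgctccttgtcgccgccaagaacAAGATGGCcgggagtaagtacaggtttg
Ndufc1: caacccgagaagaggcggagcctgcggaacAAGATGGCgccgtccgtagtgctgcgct
Ndufaf8: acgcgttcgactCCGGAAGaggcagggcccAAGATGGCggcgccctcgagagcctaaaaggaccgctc

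CCGGAAG, the core of the site of ETS factors such as GABPA, stood in 4 of the 33 nuclear subunit genes (12.1%), in 2 of 7 Ndufaf genes (28.6%) and in 9.93% of all genes with a window, and GCGCATGC, the core of the NRF1 site, in 3 (9.09%), in 2 of 7 (28.6%) and in 3.05%. Both were searched on both strands. CCGGAAG and AAGATGGC share the letters AAG, but they overlapped in 1 of the 135 windows that held both. The promoter of Ndufa1, the member with the highest fold change, is printed whole. It held none of these letters, while 14 of the 33 nuclear subunit genes (42.4%) held any of them, against 14.9% of all genes with a window. The window lies at chrX:37191189-37191488 on the minus strand, and no letters are in capitals. In GENCODE M21 the gene starts at 37191163 on this strand, so the window lies wholly before that start, and the bases after it were not searched.
Ndufa1: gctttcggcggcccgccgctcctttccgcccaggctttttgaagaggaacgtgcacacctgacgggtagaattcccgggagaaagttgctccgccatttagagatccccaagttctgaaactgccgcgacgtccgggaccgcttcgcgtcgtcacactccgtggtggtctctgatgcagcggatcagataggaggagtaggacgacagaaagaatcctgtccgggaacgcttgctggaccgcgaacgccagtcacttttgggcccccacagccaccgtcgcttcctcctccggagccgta

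The transcripts of mt-Nd3 and mt-Nd4l are shown because these neighbours on the heavy strand, 70 bases apart, differed in opposite directions between the groups. From the GENCODE M21 transcripts on GRCm38, the leading 300 of the 348 bases of mt-Nd3 lie at chrM:9459-9758 and all 297 bases of mt-Nd4l at chrM:9877-10173, both on the plus strand. Both have nuclear copies of almost their whole length, of which the one of mt-Nd3 was 99.7% identical and the one of mt-Nd4l 100% identical over the aligned bases. No letters are in capitals.
mt-Nd3: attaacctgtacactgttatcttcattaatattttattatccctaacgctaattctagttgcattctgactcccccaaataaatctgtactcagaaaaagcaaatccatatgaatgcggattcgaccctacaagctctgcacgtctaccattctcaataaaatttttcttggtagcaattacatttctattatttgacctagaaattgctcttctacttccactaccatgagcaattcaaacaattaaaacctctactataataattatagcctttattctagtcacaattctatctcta
mt-Nd4l: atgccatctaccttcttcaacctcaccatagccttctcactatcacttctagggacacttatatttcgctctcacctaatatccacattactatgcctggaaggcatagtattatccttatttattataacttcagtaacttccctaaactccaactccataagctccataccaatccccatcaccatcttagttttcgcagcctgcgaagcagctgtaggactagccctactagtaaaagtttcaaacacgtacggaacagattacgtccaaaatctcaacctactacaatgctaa

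Nuclear subunits were higher after irradiation. Of the 37, 30 rose and 0 fell at an adjusted p under 0.05 (edgeR, quasi-likelihood, with Benjamini-Hochberg adjustment over the 14106 genes tested), against 12.7% of all genes tested that rose and 13.0% that fell. All 52 members passed the filter on low counts. The median log2 fold change of the nuclear subunits was 1.07, with a range from 0.02 to 2.08, and the median over all genes tested was 0.02. In CPM, which are counts scaled by library size, all irradiated libraries lay above both controls for 36 of the 37 subunits, against 30.1% of all genes. The count of 30 rested on the control library numbered 2, since without it 0 subunits were called, with 95 of all genes higher, and the median was 0.96, while without irradiated library 2 it was 18. Of all genes, 684 were higher without irradiated library 2. More RNA per cell and more cells that hold it cannot be told apart in bulk samples.

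**Figure D1:**
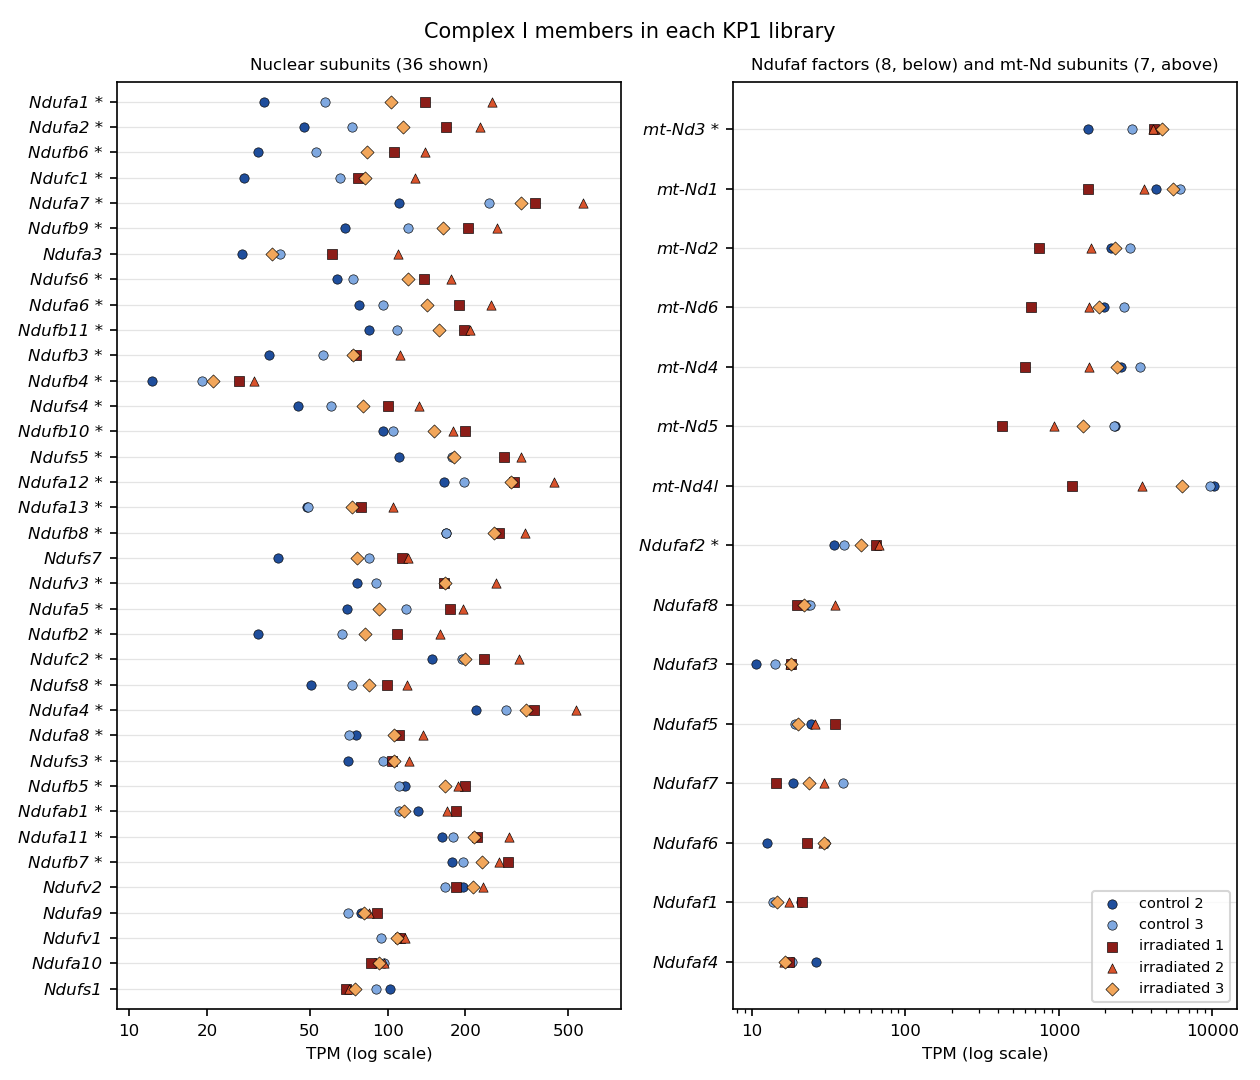
TPM (log scale) of the complex I members, 1 nuclear subunit left out, in the 2 control libraries (blue circles) and the 3 irradiated libraries (dark red squares, red triangles and orange diamonds), with nuclear subunits on the left and mt-Nd and Ndufaf members on the right, ordered by log2 fold change. An asterisk marks an adjusted p under 0.05 by edgeR. For Ndufa1 the irradiated libraries, at 102.9 to 252.3 TPM, lie above both controls, and for mt-Nd4l they lie below.

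The accessory subunits led the list, and 27 of these 30 rose, with a median of 1.10. Ndufa1, a small subunit of the membrane arm encoded at 37187588 to 37191163 on the minus strand of chromosome X, was at 33.3 and 57.2 TPM in controls 2 and 3 and at 139.1, 252.3 and 102.9 TPM in irradiated libraries 1, 2 and 3. The groups did not overlap, and irradiated library 2 was the highest. Ndufa1 rose by 2.08 on the log2 scale (SE 0.44, adjusted p = 0.014 by edgeR), a 4.24-fold difference in CPM. Ndufa2, a subunit of the NADH-oxidizing end of the matrix arm, was at 47.5 and 72.9 TPM in control and at 168.6, 227.0 and 114.2 TPM in irradiated libraries. Its log2 fold change was 1.76 (SE 0.33, adjusted p = 0.012 by edgeR). The same order of libraries, with control 2 lowest and irradiated 2 highest, held for both genes.

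Past the limit that the study set on the log2 fold change, above 1.5, 5 nuclear subunits were called, against 1.63% of all genes. Beside Ndufa1 and Ndufa2 these were Ndufb6 and Ndufc1 in the membrane arm and Ndufa7 in the matrix arm. Ndufb6 was at 31.4 and 52.6 TPM in control and at 106.2, 139.2 and 83.4 TPM in irradiated libraries, a log2 fold change of 1.65 (SE 0.31, adjusted p = 0.012 by edgeR). Its transcript overlaps that of Smim27 on the other strand, which had 4.03 to 49.9 reads where Ndufb6 had 186 to 765.9. Ndufc1, at 27.8 and 65.3 TPM in control and at 76.7, 127.8 and 81.4 TPM after irradiation, had a log2 fold change of 1.51 (SE 0.33). Ndufa7 had the highest level of these 5, with 110.2 and 246.2 TPM in control and 373.0, 571.2 and 329.0 TPM in irradiated libraries. Its log2 fold change was 1.504 (SE 0.36, adjusted p = 0.021 by edgeR), and Ndufb9, also in the membrane arm, followed with 1.44 (SE 0.30). In all 6 genes control 2 was the lowest library.

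The lowest of the accessory subunits were Ndufa10, Ndufa9 and Ndufb7. Ndufa10, on the matrix side of the membrane arm, was at 89.3 and 96.4 TPM in control and at 85.9, 96.7 and 92.7 TPM in irradiated libraries, so the groups overlapped in TPM. Its log2 fold change in counts was 0.33 (95% interval 0.05 to 0.61, adjusted p = 0.12 by edgeR). The 95% intervals given here take the SE as normal and are too narrow for so few libraries. For Ndufa10 the unadjusted p was 0.0501 by edgeR. Ndufa9, which sits where the arms meet, had 0.47 (95% interval 0.17 to 0.77, adjusted p = 0.055 by edgeR). Ndufb7, on the intermembrane side, rose by 0.67 (SE 0.16, adjusted p = 0.023 by edgeR), from 176.7 and 195.8 TPM to 293.3, 268.6 and 231.4 TPM. Ndufa3, a small membrane-arm subunit, was not called at a log2 fold change of 1.35 (SE 0.45, adjusted p = 0.057 by edgeR). Its irradiated library 3, at 35.7 TPM, lay between the controls at 27.3 and 38.4 TPM, and the other irradiated libraries stood at 61.0 and 109.8 TPM. Ndufa4, which is now assigned to complex IV, rose by 0.96 (SE 0.24), and without it 29 nuclear subunits rose.

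Among the nuclear core subunits, which carry the redox centres, calls were made in the quinone-binding module. Ndufs3, of that module, rose by 0.96 (SE 0.17, adjusted p = 0.010 by edgeR), from 70.4 and 95.7 TPM to 104.2, 120.4 and 105.8 TPM, and Ndufs8, an iron-sulfur protein there, rose by 1.00 (SE 0.23, adjusted p = 0.020 by edgeR), from 50.4 and 72.8 TPM to 99.3, 118.5 and 84.8 TPM. In neither gene did the groups overlap. Ndufs7, the iron-sulfur protein closest to the quinone, had a log2 fold change of 1.07 with an adjusted p of 0.054, and control 2 at 37.7 TPM stood apart from control 3 at 84.8 TPM. Ndufv1, which binds NADH and the flavin, had 0.45 (95% interval 0.13 to 0.77), and Ndufv2, an iron-sulfur partner of Ndufv1, had 0.57 (95% interval 0.20 to 0.94). Neither of these was called.

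Ndufs1, the largest iron-sulfur subunit, was the nuclear member with the smallest difference. It stood at 102.1 and 89.9 TPM in control and at 69.0, 70.9 and 74.7 TPM in irradiated libraries, and the irradiated libraries were the lower ones on this scale. In counts its log2 fold change was 0.02 (95% interval −0.25 to 0.28, adjusted p = 0.94 by edgeR). By TPM it ranked 14 and 21 among the 37 nuclear subunits in controls 2 and 3, and 35, 36 and 33 in irradiated libraries 1, 2 and 3. It is also the nuclear subunit with the longest transcript, 2420 bases.

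Fold changes of the nuclear subunits followed transcript length. The median transcript of a nuclear subunit was 704 bases long and that of a gene tested was 2502 bases. Of 29 subunits under 1000 bases, 27 rose, and of 8 with at least 1000 bases, 3 rose. Across the 37, the log2 fold change and log2 length had a Pearson r of −0.77 and a Spearman rho of −0.63, and across all genes tested r was −0.41. With the length offset described after the bins, r was −0.66 across the 37 and −0.0044 across all genes, so the offset left a relation with length among the subunits. These correlations are across genes of the same 5 libraries, and genes are not independent replicates.

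**Figure D2:**
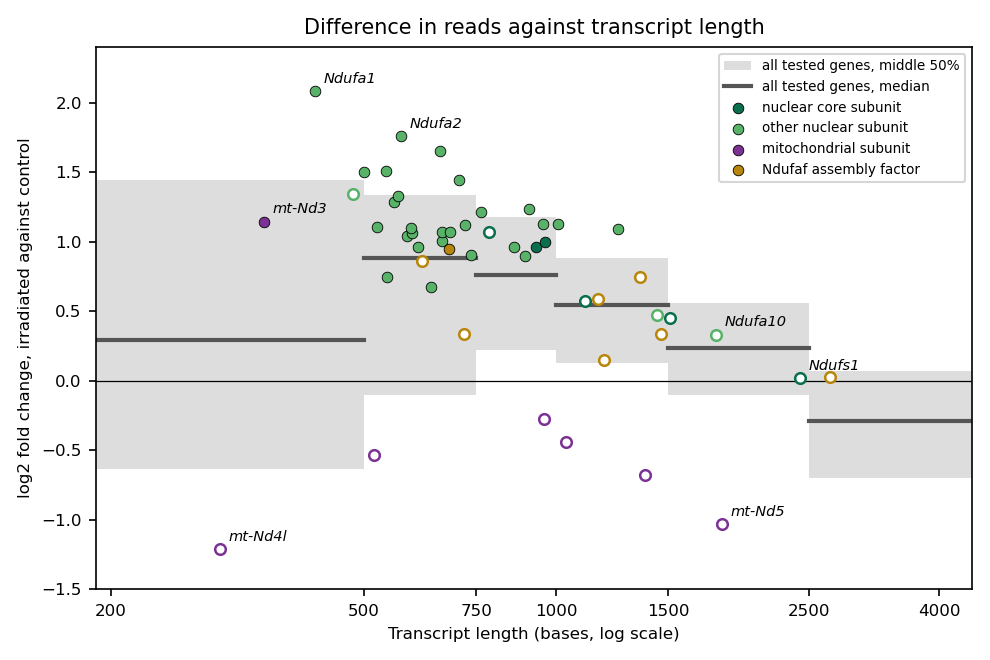
Log2 fold change of reads (irradiated against control) against transcript length in bases (log scale) for the members, 1 nuclear subunit left out, beside the median (line) and middle 50% (grey) of all genes tested in the same length bin. Filled points have an adjusted p under 0.05 by edgeR, open points do not. All tested genes go from a median of 0.89 at 500 to 750 bases to −0.29 above 2500 bases, and the mt-Nd subunits other than mt-Nd3 lie below their bins.

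Within bins of length most subunits lay above the median of other genes. Under 500 bases the 3 nuclear subunits had a median of 1.504, all genes tested had 0.29 and protein-coding genes had 0.62. At 500 to 750 bases the 18 nuclear subunits had a median of 1.09, all genes tested had 0.89 and protein-coding genes had 1.01, and 18 of 18 subunits rose, against 43.2% of all genes and 49.1% of protein-coding genes in this bin. At 750 to 1000 bases the medians were 1.03 for 8 subunits and 0.76 for all genes, and at 1000 to 1500 bases they were 0.83 for 4 subunits and 0.54 for all genes. Altogether 33 of the 37 subunits lay above the median of all genes in their own bin, and 30 lay above that of protein-coding genes. The same held for 1 of 7 mt-Nd subunits in either reading, and for 4 and 3 of 8 Ndufaf genes.

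With an offset that removes each library's own trend with transcript length, 7 nuclear subunits rose and 0 fell, against 4.25% of all genes that rose and 3.64% that fell. These were Ndufa1 (log2 fold change 1.63), Ndufa2 (1.199), Ndufb6 (1.08), Ndufc1 (0.97), Ndufb9 (0.86), Ndufs6 (0.76) and Ndufb11 (0.66), all accessory subunits. The median fell from 1.07 to 0.50 for the nuclear subunits, 0 core subunits were called, and 36 of 37 values stayed above 0. At an unadjusted p under 0.05 by edgeR, 23 nuclear subunits were higher, but the share of all genes at this p was not computed. Libraries were also left out under this offset, an alternative chosen after seeing the data. Without irradiated 1 or irradiated 2, 0 subunits were called at medians of 0.51 and 0.43, and 0 of all genes rose by edgeR. At an unadjusted p under 0.05 by edgeR, 20 and 14 subunits were higher there, again with no share of all genes computed. Without control 2, which leaves 1 control, the median was 0.53. There were 4 subunits among 294 genes that rose without irradiated 3, and 13 among 1207 without control 3. Of the 7 genes called with all libraries, Ndufb11 shares 117 bases with Rbm10 on the other strand, which had 2811 to 5221 reads beside 835 to 2015 of Ndufb11. The offset removes a trend of any origin, and whether the difference in transcript length came from the cells or from the RNA or library was not tested.

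**Figure D3:**
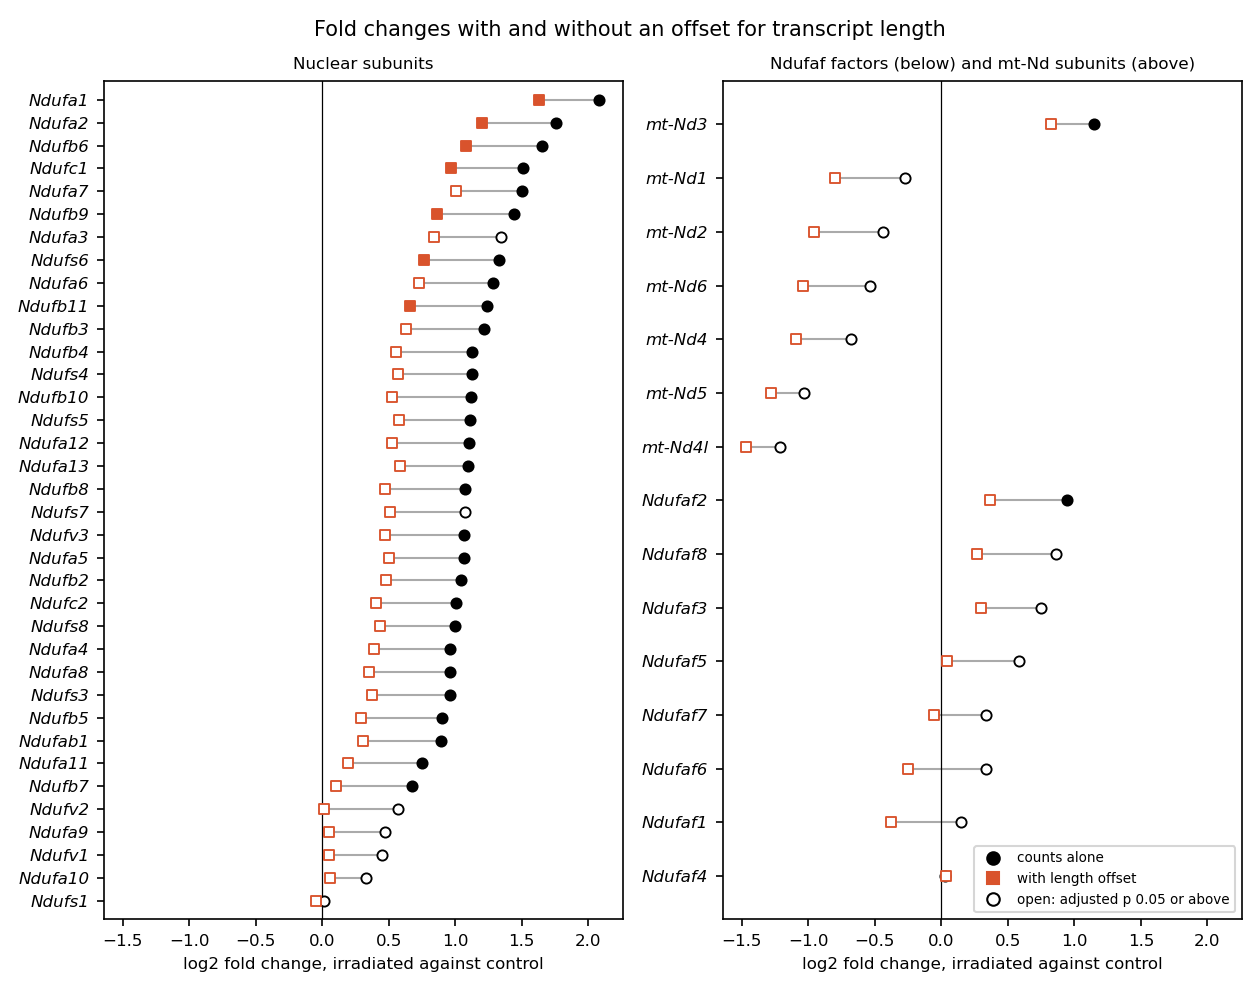
Log2 fold change of the members, 1 nuclear subunit left out, by edgeR on counts alone (black circles) and with an offset for transcript length (orange squares), joined by a line, and filled where the adjusted p is under 0.05. The offset moves the nuclear members to the left, from a median of 1.07 to 0.50, and leaves 7 of them filled.

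On the scale of TPM, which is per transcript length, 18 nuclear subunits rose and 0 fell (limma on log2(TPM + 1) with Benjamini-Hochberg adjustment), against 4.91% of all genes that rose and 19.0% that fell. The median of all genes was −0.24 here and that of the nuclear subunits 0.77. Summed over the 37 nuclear subunits the level was 3362 and 4139 TPM in controls 2 and 3 and 6119, 7697 and 5247 TPM in irradiated libraries 1, 2 and 3. The groups did not overlap, and the mean was 1.69 times higher after irradiation. Most of this lay in the accessory subunits, whose sum went from 2628 and 3350 TPM to 5228, 6702 and 4361 TPM, a ratio of means of 1.82. The core subunits summed to 734.2 and 788.3 TPM in control and to 891.7, 994.7 and 886.5 TPM in irradiated libraries, a ratio of 1.21.

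The mitochondrial subunits did not share the direction of the nuclear ones. Only mt-Nd3 was called among the 7, and it rose, a share near the 12.7% of all genes that rose. The other 6 had log2 fold changes from −1.21 to −0.28 with adjusted p-values of 0.083 to 0.66 by edgeR. The median was −0.54, and all irradiated libraries lay below both controls in CPM for 2 of the 7, mt-Nd4l and mt-Nd5, against 29.3% of all genes. With the offset for length the median was −1.04 and 0 were called. Without irradiated library 3 the same offset called 5, beside 294 of all genes higher and 242 lower. With an offset for GC content the median turned to 0.17. GC content is 33.0% to 41.1% in these genes and 44.1% to 60.4% in the nuclear subunits.

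In mt-Nd4l, a small subunit of the proton-pumping membrane arm, the level was 10270 and 9681 TPM in control and 1216, 3472 and 6296 TPM in irradiated libraries. All irradiated libraries lay below the controls, and irradiated library 1 was far below the others. The log2 fold change in counts was −1.21 (SE 0.51, adjusted p = 0.11 by edgeR). For mt-Nd5, an antiporter-like subunit, the values were 2329 and 2297 TPM and then 428.1, 929.6 and 1445 TPM, with a log2 fold change of −1.03 (SE 0.39, adjusted p = 0.083 by edgeR). Without irradiated library 3, the one nearest to the controls, mt-Nd4l and mt-Nd5 were called with log2 fold changes of −1.83 and −1.43. That fit called 1557 of all genes higher and 1460 lower. DESeq2 also called mt-Nd5 (−1.05), beside 2413 of all genes higher and 2292 lower. With the GC offset mt-Nd4l and mt-Nd5 had −0.93 and −0.52, and with a replicate block −0.85 and −0.71, and neither gene was called in these fits.

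The other antiporter-like subunits, mt-Nd2 and mt-Nd4, had log2 fold changes of −0.44 and −0.68. In mt-Nd4 the controls stood at 2544 and 3384 TPM and the irradiated libraries at 598.0, 1581 and 2403 TPM. The gene overlaps mt-Nd4l on the same strand (−7 bases between them), so their values need not come from separate messages. mt-Nd1, which forms part of the quinone site, had −0.28, and it lay at 4268 and 6132 TPM in control and at 1546, 3607 and 5536 TPM in irradiated libraries. mt-Nd6, coded alone on the other strand, had −0.54, with 1975 and 2641 TPM against 653.2, 1559 and 1816 TPM. In all 6 of these subunits irradiated library 1 was the lowest of the 5 libraries and irradiated library 3 the nearest to the controls. The percentage of reads on the mitochondrial chromosome moved in the same order, with 0.823, 1.497 and 1.89 in irradiated libraries 1, 2 and 3, beside 1.07 and 2.03 in controls 2 and 3. Without irradiated library 1 the median was −0.21 and mt-Nd1 had 0.08.

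The subunit mt-Nd3, which lies near the quinone channel, went the other way. It was at 1543 and 3005 TPM in control and at 4185, 4120 and 4723 TPM in irradiated libraries, so its irradiated libraries lay together and above both controls. The log2 fold change was 1.14 (SE 0.26, adjusted p = 0.017 by edgeR), 0.82 with the length offset (adjusted p = 0.054 by edgeR) and 0.78 without control 2 (adjusted p = 0.062 by edgeR). Per read of mt-Nd4l, which follows it on the same strand, there were 0.237 and 0.477 reads of mt-Nd3 in controls and 5.22, 1.77 and 1.16 in irradiated libraries. The groups did not overlap in this ratio, which was set in advance, because in CPM both genes separated the groups, in opposite directions. Upstream, mt-Co3 of complex IV, named after its values were seen, lies 68 bases before mt-Nd3 and had a log2 fold change of 1.02 (SE 0.33, adjusted p = 0.053 by edgeR).

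**Figure D4:**
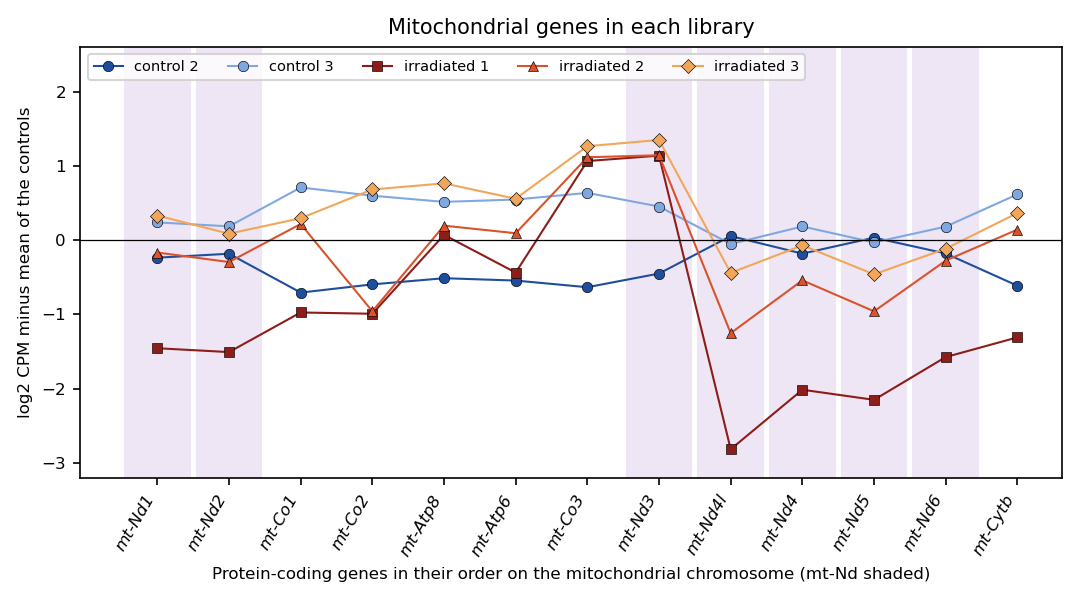
Log2 CPM minus the mean of the controls for the 13 protein-coding genes of mitochondrial DNA, in their order on the chromosome, with 1 line for each library and the mt-Nd genes shaded. The 3 irradiated lines meet at mt-Co3 and mt-Nd3, between 1.06 and 1.35 above the control mean, and drop at mt-Nd4l to −2.82, −1.25 and −0.44 in irradiated libraries 1, 2 and 3.

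Among the 13 protein-coding genes of mitochondrial DNA the mt-Nd genes held 56.9% and 39.6% of the reads in controls 2 and 3 and 28.0%, 36.2% and 38.3% in irradiated libraries. The controls differed from each other more than control 3 did from irradiated library 3. The other 6 proteins of mitochondrial DNA had 0 called genes by edgeR and 1 at an unadjusted p under 0.05, mt-Co3, with a median of −0.10. Their sum was 14550 and 35120 TPM in controls 2 and 3 and 15900, 20920 and 31070 TPM in irradiated libraries, so the groups overlapped. The gene with the largest p was mt-Atp6, an ATP synthase subunit, with a log2 fold change of 0.03.

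Nuclear copies of mitochondrial DNA took some reads that could belong to members. Gm28439, a pseudogene on chromosome 1 that matches 63.6% of mt-Nd4 without a difference, had 9761 and 6029 reads in controls 2 and 3, and 0, 0 and 1023 reads in irradiated libraries 1, 2 and 3. With such reads added to the members, mt-Nd4 had a log2 fold change of −0.88 and was not called. Gm28438, the copy of mt-Nd3, had 591.2 reads in irradiated library 2 and 0 in the others, and with them mt-Nd3 stayed called. The copy of mt-Nd4l had 0 reads. Of the nuclear subunits, Ndufb4 has a copy, Ndufb4c, that is identical over 390 bases and had 45.9 and 117.9 reads in control and 387.6, 339.6 and 279.7 reads in irradiated libraries, beside 132.1, 163.1, 299.4, 313.4 and 246.3 reads of Ndufb4. Reads of the shared bases cannot be told apart, and these 4 members are uncertain to that degree. Processed pseudogenes of Ndufa12, Ndufab1, Ndufb3, Ndufb11, Ndufs3, Ndufs5 and Ndufs6 had 0 to 4.22 reads. Ndufa13 and Ndufb5 overlap Tssk6 and Mrpl47 on the other strand, and their reads cannot be told apart without the strand setting.

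The ratio of mitochondrial to nuclear subunit levels separated the groups. Summed over the mt-Nd genes the level was 25120 and 30070 TPM in controls 2 and 3 and 9363, 16900 and 24530 TPM in irradiated libraries 1, 2 and 3. Divided by the sum of the nuclear subunits, this gave 7.47 and 7.26 in control and 1.53, 2.20 and 4.68 in irradiated libraries, with a mean of 7.37 ± 0.146 (SD, n = 2) and of 2.80 ± 1.66 (SD, n = 3). All irradiated libraries lay below both controls, although they spread widely. This order was set by the sums themselves, since each sum already separated the groups, in opposite directions. Without mt-Nd3, the gene that rose, the ratios were 7.01 and 6.54 against 0.846, 1.66 and 3.78. Of the mt-Nd sums, mt-Nd4l gave 10270 and 9681 TPM in control and 1216, 3472 and 6296 TPM in irradiated libraries. The ratio without mt-Nd4l was not computed. These ratios carry no offset for GC content, with which the median log2 fold change of the mt-Nd genes was 0.17.

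**Figure D5:**
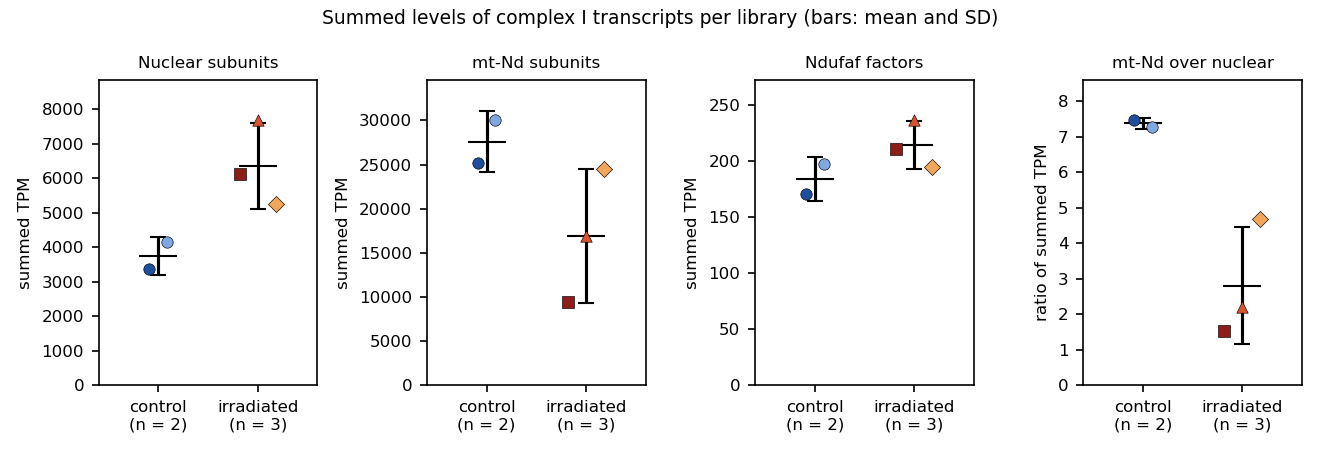
Summed TPM of the nuclear subunits, the mt-Nd subunits and the Ndufaf factors, and the ratio of mt-Nd to nuclear subunits, in each library (points), with the mean and SD of the group (bars). The ratio is 7.26 and 7.47 in the control libraries and 1.53 to 4.68 in the irradiated libraries.

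Of the 8 Ndufaf assembly factors 1 rose, a share near the 12.7% of all genes. The median log2 fold change was 0.46, or 0.04 with the length offset. Ndufaf2, a chaperone of a late assembly step, was at 34.1 and 39.8 TPM in control and at 63.9, 67.4 and 51.3 TPM in irradiated libraries. Its groups did not overlap, and it rose by 0.94 (SE 0.23, adjusted p = 0.023 by edgeR), but with the length offset it had 0.36 (adjusted p = 0.21 by edgeR). The call was also lost without control 2, irradiated 1 or irradiated 2, with log2 fold changes of 0.82, 0.92 and 0.85.

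Ndufaf3 and Ndufaf4 act together early in assembly, and their values differed from each other. Ndufaf3 was at 10.6 and 14.1 TPM in control and at 17.8, 17.6 and 17.9 TPM after irradiation, with a log2 fold change of 0.75 (SE 0.24, adjusted p = 0.052 by edgeR). Ndufaf4 had 0.03 (SE 0.18), with 26.3 and 18.3 TPM against 17.5, 16.0 and 16.5 TPM. Ndufaf8, the partner of the hydroxylase Ndufaf5, had 0.86 (SE 0.37), and Ndufaf5 had 0.58 (SE 0.29). Ndufaf6, Ndufaf7, a methyltransferase, and Ndufaf1, which belongs to the complex that builds the membrane arm, had 0.34, 0.34 and 0.15. None of these 7 was called.

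Summed TPM of the Ndufaf factors was 170.4 and 197.8 in controls 2 and 3 and 211.3, 237.0 and 194.9 in irradiated libraries, so that irradiated library 3 lay below control 3. The nuclear subunits stood at 19.7 and 20.9 times this sum in control and at 29.0, 32.5 and 26.9 times in irradiated libraries. The groups did not overlap in this ratio. The median transcript of the Ndufaf factors was longer, with 1179 bases, than that of the nuclear subunits, and the difference between these sets was not tested.

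Of the 52 members 14 have 1 transcript, and among the rest pairs of transcripts were followed only in Ndufv3, Ndufv2 and Ndufs1. How often such pairs differ in other members or in all genes was not computed. Ndufv3, an accessory subunit beside the flavin site, has a short transcript of 485 bases and a long transcript of 1537 bases. The short one had 169 and 184 reads in controls 2 and 3 and 439, 655 and 475 in irradiated libraries, and the long one had 423 and 378 and then 517, 572 and 599. Their ratio was 0.399 and 0.486 in control and 0.850, 1.146 and 0.794 in irradiated libraries, with no overlap, in the direction of the shorter transcript. For Ndufv2, with transcripts of 927 and 1697 bases, the ratio went the other way, from 1.34 and 1.79 to 1.19, 1.17 and 1.26. For Ndufs1, whose main transcripts of 2590 and 2661 bases hardly differ in length, the ratios of 0.5655 and 0.455 in control and 0.655, 0.4998 and 0.544 in irradiated libraries overlapped.

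Transcripts annotated as protein-coding held, over the 34 members that also have a non-coding transcript, a median of 94.9% and 91.9% of a member's reads in controls 2 and 3, and of 98.5%, 97.2% and 97.1% in irradiated libraries. Ndufa3 stood out in control 2, where 28.9% of its reads were on protein-coding transcripts, beside 83.0% in control 3 and 72.6% to 85.0% in irradiated libraries. With protein-coding transcripts alone, the count of nuclear subunits that rose was again 30 and the median was 1.05.

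Other genes tied to the complex were read from lists. Of 11 other assembly factors of complex I, 10 were tested, with a median of 0.48. Of these 10, 3 rose and 0 fell, against 12.7% and 13.0% of all genes. Dmac1, a membrane-arm assembly factor, rose by 1.595 (SE 0.27, adjusted p = 0.010 by edgeR), from 223 and 254 reads to 650, 736 and 526 reads, and Tmem70 and Dmac2, also membrane-arm factors and named after their values were seen, by 1.03 and 0.77. With the length offset 1 of the 10 rose, against 4.25% of all genes, and Dmac2 had 0.33 (adjusted p = 0.29 by edgeR). Timmdc1, another factor of the membrane arm, had 0.09. Coa1 was not matched by name. Complex II feeds electrons to ubiquinone from succinate and has no mitochondrial gene. Its list held the subunits Sdha to Sdhd and the assembly factors Sdhaf1 to Sdhaf4. Of these 8 genes 4 rose and 0 fell, against 12.7% and 13.0% of all genes, with a median of 0.89. With the length offset 2 of the 8 rose, against 4.25% of all genes, and the median was 0.68. Sdhd, a membrane anchor, rose by 1.06 (SE 0.19, adjusted p = 0.010 by edgeR), as did, named after their values were seen, Sdhb (0.68, or 0.15 with the length offset), Sdhc (1.23) and Sdhaf1 (1.11), while Sdha, the flavoprotein, had −0.01.

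Of 21 genes of mitochondrial transcription and RNA stability, 20 were tested (Fastkd4 was not matched by name), with a median of 0.33. Of these 20, 0 rose and 1 fell, against 12.7% and 13.0% of all genes. The gene that fell was Lrpprc, which stabilizes the messages of mitochondrial DNA. It had 6803 and 4828 reads in controls 2 and 3 and 3022, 2865 and 4400 reads in irradiated libraries. It fell by 0.61 (SE 0.18, adjusted p = 0.043 by edgeR), with −0.25 under the length offset (adjusted p = 0.29 by edgeR). Polrmt, the polymerase, had 0.02. Of 8 regulators of respiratory genes 1 rose and 1 fell, shares near the 12.7% and 13.0% of all genes. Esrra, a nuclear receptor that acts on respiratory genes, rose by 1.06 (SE 0.17, adjusted p = 0.009 by edgeR) and by 0.83 with the length offset (adjusted p = 0.030 by edgeR), but its log2 TPM differed by 0.20 (adjusted p = 0.46 by limma). Pprc1, a coactivator of the same genes that was named after its values were seen, fell by 0.77 (SE 0.14, adjusted p = 0.011 by edgeR), with −0.69 under the length offset (adjusted p = 0.027 by edgeR). Ppargc1b, another coactivator, had −0.02, and Nrf1 had −0.08. Yy1, named for the letters in the promoters, had 0.20 (adjusted p = 0.34 by edgeR), but 0.82 with the length offset (adjusted p = 0.027 by edgeR), and its transcript of 5777 bases is long.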

How the data were processed

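Bulk RNA sequencing of KP1 cells was analysed in 2 control and 3 irradiated libraries, grouped by their labels. Single-cell samples were not used here. Reads had been quantified by the authors with Salmon 0.8.2 on mm10, who deposited estimated counts (expected counts, not scaled) and TPM for 113116 transcripts; the submitters' processing notes also name DESeq2 1.22.2. The annotation release and strand setting are not given in the sources used here.

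Of these transcripts 99.69% were matched without version to GENCODE M21, summed per gene and rounded. edgeR 4.0.16 (filterByExpr, TMM, quasi-likelihood, no block) with Benjamini-Hochberg adjustment covered 14106 genes, called at an adjusted p under 0.05. A gene's length is the mean of its transcripts weighted by TPM; the offset is a spline with 5 degrees of freedom per library. CPM values use TMM. limma 3.58.1 was run on log2(TPM + 1), and DESeq2 1.42.0 as an alternative. Copies were sought with blastn 2.17.0. Fits were also run on simulated counts with planted changes larger than the medians of the members, so these runs do not vouch for the calls made here.

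The members and lists were chosen with earlier results of these data known. Genes named were all mt-Nd, core and Ndufaf members, the 6 highest and 3 lowest accessory subunits, those past a log2 fold change of 1.5, those with copies, and in each list the called gene with the smallest p and the gene with the largest p. Results on 1 nuclear core subunit and 1 marker gene are not reported here.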

Additional observations from a re-analysis of the deposited data

How the results depend on the processing

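Across libraries left out in turn, the count of nuclear subunits that rose ran from 0 to 32, that of mt-Nd subunits called from 0 to 3 and that of Ndufaf factors that rose from 0 to 1, while 95 to 2232 of all genes rose and 175 to 1977 fell. The lowest values came without control 2, which leaves 1 control assumed to vary like the irradiated libraries. The 3 medians kept their sign throughout, the nuclear one at 0.88 or above. With the transcript length offset, 7 nuclear, 0 mt-Nd and 0 Ndufaf genes were called, beside 600 of all genes higher and 514 lower, and the medians were 0.50 for nuclear subunits and 0.039 for Ndufaf factors. limma on log2 TPM called 18 nuclear and 0 mt-Nd members with a pseudocount of 1 or 0.1, 693 or 721 of all genes higher, and gave nuclear medians of 0.774 and 0.785 and Ndufaf medians of 0.165 and 0.170. It moved the median of all genes to −0.24, so that 2678 genes were lower, and library size alone moved it to 0.10. DESeq2 called 2 mt-Nd and 2 Ndufaf members, with 2413 of all genes higher and 2292 lower. No filter on low counts gave 4 and 2, with 2520 of all genes higher and 1979 lower. Library size alone gave 2 Ndufaf members, with 1949 of all genes higher and 1456 lower. Past the study's thresholds 5 nuclear, 0 mt-Nd and 0 Ndufaf members were called. The GC offset turned the mt-Nd median to 0.17 and mt-Nd6, mt-Nd2 and mt-Nd1 to 0.19, 0.17 and 0.20.

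Replicate numbers 2 and 3 occur in both groups, and the labels do not say whether they pair the samples. The difference between the numbers correlated across genes at −0.196 between the groups. This value cannot decide the pairing, because differences between whole libraries also enter it. With a replicate block, 18 nuclear and 0 Ndufaf members rose, with 602 of all genes higher and 494 lower, and mt-Nd1 had 0.0806. With the block and the length offset, 0 nuclear, 0 mt-Nd and 0 Ndufaf members were called (edgeR), with 11 of all genes higher and 19 lower, and medians of 0.49 for nuclear subunits and 0.084 for Ndufaf factors. A block with the numbers crossed, chosen after seeing the data, called 3 mt-Nd and 4 Ndufaf members and 3026 of all genes as higher.

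Of the named genes, values changed sign in 30 cases, none of them called in either fit. mt-Nd1 had 0.0807 with the crossed block and −0.689 to 0.083 across libraries left out. Ndufs1 had −0.047 with the length offset, −0.0746 with effective lengths, −0.0264 with block and length offset, −0.417 and −0.421 in limma, −0.0326 with protein-coding transcripts and −0.021 to 0.0436 across libraries left out. Ndufaf4 had −0.0685 with effective lengths, −0.377 and −0.393 in limma and −0.125 to 0.243 across libraries left out. Ndufaf1 had −0.38 with the length offset, −0.32 with block and offset and −0.0425 to 0.417 across libraries left out. Ndufaf6 had −0.25 and −0.27 with these offsets and −0.11 with protein-coding transcripts. Ndufaf7 had −0.0549 with the length offset, −0.0106 with effective lengths, and −0.32 and −0.33 in limma, Ndufaf5 −0.17 with block and offset, and Ndufa10 −0.0174 and −0.0176 in limma. The cause of these changes was not tested. What depth limits was not tested. Members had SEs of 0.14 to 0.51 at 2 libraries against 3.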

Other observations

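Ndufa4l2, a relative of Ndufa4 that hypoxia induces and that was left out of the members, had 10 and 30 reads in controls 2 and 3 and 47, 73 and 73 reads in irradiated libraries 1, 2 and 3. All irradiated libraries lay above both controls, and its log2 fold change was 1.83 (SE 0.63, adjusted p = 0.064 by edgeR). The processed pseudogene Ndufb4c, on chromosome 15 from 73809507 to 73809896, rose by 2.19 (SE 0.44, adjusted p = 0.013 by edgeR) and by 1.81 with the length offset (adjusted p = 0.034 by edgeR). Of the other Nduf pseudogenes, Ndufa11b and Ndufs6b had 0 reads in all 5 libraries, and Ndufab1-ps had 0 to 4 reads.

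Slirp, the partner of Lrpprc in binding mitochondrial messages, had 117 and 251 reads in controls 2 and 3 and 219, 814 and 437 reads in irradiated libraries, so that the groups overlapped, while Lrpprc fell. Its log2 fold change was 1.61 (SE 0.60, adjusted p = 0.080 by edgeR). Sftpc, a surfactant protein of alveolar cells, had 23 and 39 reads in control and 83, 88 and 108 reads in irradiated libraries, and it rose by 1.72 (SE 0.45, adjusted p = 0.028 by edgeR).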
